A study of Homo sapiens with 6 samples.

Results

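The genes for the cytosine methylation writers and for enzymes that act around TET proteins were examined through the 5hmC and 5mC peak regions listed at their loci. The 7 genes were DNMT1, UHRF1, DNMT3A, DNMT3B, TDG, IDH1 and IDH2. A region was a member when it overlapped one of the 7 gene spans on hg19 with 5 kb added at both ends, a rule that uses position and no measured value. Of 593594 peak regions in 4 deposited lists, 375 were members. They comprised 91 high-glucose and 106 normal-glucose 5hmC regions, and 88 high-glucose and 90 normal-glucose 5mC regions. The 7 loci together spanned 401 kb.

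The cells were A2058, a human melanoma line, made to overexpress wild-type TET2 and grown for 7 days in high glucose or in normal glucose. Every library analysed here carried the TET2 overexpression, and no source used here names the vector, its promoter or whether the line is 1 clone. Immunoprecipitation with an antibody against 5hmC (hMeDIP-seq) or 5mC (MeDIP-seq) enriches DNA fragments that carry the modified base, and a listed region is a stretch where such fragments pile up above background. Each mark had 1 library at each glucose level, so the differences between glucose levels have no replicate check and carry no p-value. Depth was inferred from the fold and p columns as 28.03 M reads (high glucose) and 27.5 M reads (normal glucose) for 5hmC, and 6.14 M and 5.11 M reads for 5mC, in high and normal glucose. These figures assume a genome of 2700 Mb and a fragment length equal to the shortest region of each list. That was 292 bp (high) and 259 bp (normal) for 5hmC, and 324 and 325 bp for 5mC. They also assume that fold and p came from a Poisson model of unscaled fragment counts, which no source used here states.

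DNMT3A and DNMT3B place methyl groups on unmethylated DNA, and DNMT1 copies them to the daughter strand after replication, guided there by UHRF1, which binds hemimethylated CpG. TET dioxygenases oxidise 5mC to 5hmC and further, and TDG, a DNA glycosylase, cuts out the most oxidised forms so that base excision repair can restore cytosine. IDH1 in the cytosol and IDH2 in mitochondria make 2-oxoglutarate, the co-substrate that TET enzymes need. The lists report marks on the DNA of these genes and not their expression.

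The promoter sequences of 5 of the genes are shown. DNMT1, DNMT3A, TDG and IDH1 have an entry at the outer start of the gene, and UHRF1, which has none there, was added with its most upstream entry. They run from 250 bases before to 50 bases after a transcription start, 5′ to 3′, and come from RefSeq on GRCh38.p14, with every CG dinucleotide, the usual target of methylation, in capitals. Since the peak regions are on hg19, no position was carried from one build to the other, and the sequences serve to show base composition.
DNMT1, GRCh38.p14, chr19:10194904-10195203, minus strand: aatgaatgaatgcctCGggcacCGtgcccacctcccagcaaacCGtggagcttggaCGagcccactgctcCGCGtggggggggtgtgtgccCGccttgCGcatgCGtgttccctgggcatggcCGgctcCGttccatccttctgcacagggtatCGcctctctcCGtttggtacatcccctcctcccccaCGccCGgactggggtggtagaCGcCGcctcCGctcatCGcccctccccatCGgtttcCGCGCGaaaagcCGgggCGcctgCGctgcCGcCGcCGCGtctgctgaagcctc
UHRF1, GRCh38.p14, chr19:4909251-4909550, plus strand: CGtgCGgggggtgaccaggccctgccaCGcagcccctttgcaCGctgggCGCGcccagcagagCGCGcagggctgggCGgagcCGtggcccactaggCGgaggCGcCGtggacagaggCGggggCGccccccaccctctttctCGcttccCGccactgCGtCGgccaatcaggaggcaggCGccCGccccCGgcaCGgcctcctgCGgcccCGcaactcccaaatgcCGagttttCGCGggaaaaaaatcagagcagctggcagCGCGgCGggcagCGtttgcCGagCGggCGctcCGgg
DNMT3A, GRCh38.p14, chr2:25342541-25342840, minus strand: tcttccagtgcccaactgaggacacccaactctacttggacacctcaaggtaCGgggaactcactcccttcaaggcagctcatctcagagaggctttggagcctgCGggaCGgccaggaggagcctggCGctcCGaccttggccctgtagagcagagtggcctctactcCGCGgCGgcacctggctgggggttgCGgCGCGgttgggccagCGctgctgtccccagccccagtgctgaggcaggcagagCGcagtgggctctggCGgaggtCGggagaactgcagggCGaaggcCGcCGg
TDG, GRCh38.p14, chr12:103965622-103965921, plus strand: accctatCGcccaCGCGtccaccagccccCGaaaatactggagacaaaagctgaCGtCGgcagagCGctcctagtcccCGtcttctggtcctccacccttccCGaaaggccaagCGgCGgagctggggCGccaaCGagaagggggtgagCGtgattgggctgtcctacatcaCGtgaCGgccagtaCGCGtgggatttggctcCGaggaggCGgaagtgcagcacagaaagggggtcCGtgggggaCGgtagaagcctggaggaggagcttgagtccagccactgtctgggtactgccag
IDH1, GRCh38.p14, chr2:208255022-208255321, minus strand: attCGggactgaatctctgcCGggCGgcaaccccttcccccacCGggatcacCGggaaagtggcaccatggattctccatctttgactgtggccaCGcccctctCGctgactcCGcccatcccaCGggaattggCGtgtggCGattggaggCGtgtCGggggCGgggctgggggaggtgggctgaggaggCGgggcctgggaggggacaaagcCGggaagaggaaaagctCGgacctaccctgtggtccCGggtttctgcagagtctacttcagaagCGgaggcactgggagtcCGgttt
The windows held 30 CG in DNMT1, 36 in UHRF1, 18 in DNMT3A, 22 in TDG and 20 in IDH1. Across the 35116 RefSeq promoter windows of this length the median was 14 CG, and 96.0% held at least 1. The UHRF1 window held as many CG as, or more than, 88.7% of them, and the DNMT3A window 57.1%. CG reads the same on both strands, so 1 search covers both. The UHRF1 window is the most upstream entry of the table, although the RefSeq span of the gene begins farther upstream. The entries for DNMT3B and IDH2 also do not lie at the outer start of the gene, and these genes are named only.

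On hg19 the gene start was taken as the outer end of the given span on the transcribed side, and regions are given 1-based. DNMT1 had no region of either mark close to its start in any of the 4 lists. The nearest 5hmC region began 19751 bp into the gene in high glucose and 7470 bp into it in normal glucose, and the nearest 5mC region 14461 bp in high and 15893 bp in normal glucose. A stretch of 19461 bp around the start, including the 5 kb before it, was free of 5mC regions at both glucose levels. TDG resembled it, with a stretch of 23464 bp around the start free of 5mC regions and 17190 bp free of any listed region. How often such stretches occur away from gene starts was not tested. The 5mC lists are sparse: windows as long as the TDG locus, described below, had a median 5mC cover of 0.980% in high and 0 in normal glucose.

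At the other starts at least 1 mark was listed nearby. Upstream of UHRF1, a 5hmC region ended 833 bp before the start in high glucose and 200 bp before it in normal glucose, while the nearest 5mC regions ended 1174 and 1837 bp before it in high and normal glucose. Upstream of DNMT3A both marks were listed at both glucose levels, with the nearest edges of the 5hmC regions 348 bp (high) and 307 bp (normal) before the start, and those of the 5mC regions 375 and 278 bp before it. At DNMT3B both marks began just inside the gene, 5hmC 485 bp (high) and 558 bp (normal) from the start and 5mC 606 and 682 bp from it. IDH1 had 5hmC without 5mC there: its 5hmC region lay 189 bp inside the start in high and 197 bp in normal glucose, and the nearest 5mC region lay beyond the other end of the gene. IDH2 had both marks, 5hmC 719 bp (high) and 780 bp (normal) and 5mC 659 bp from the start at each glucose level.

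**Figure D1:**
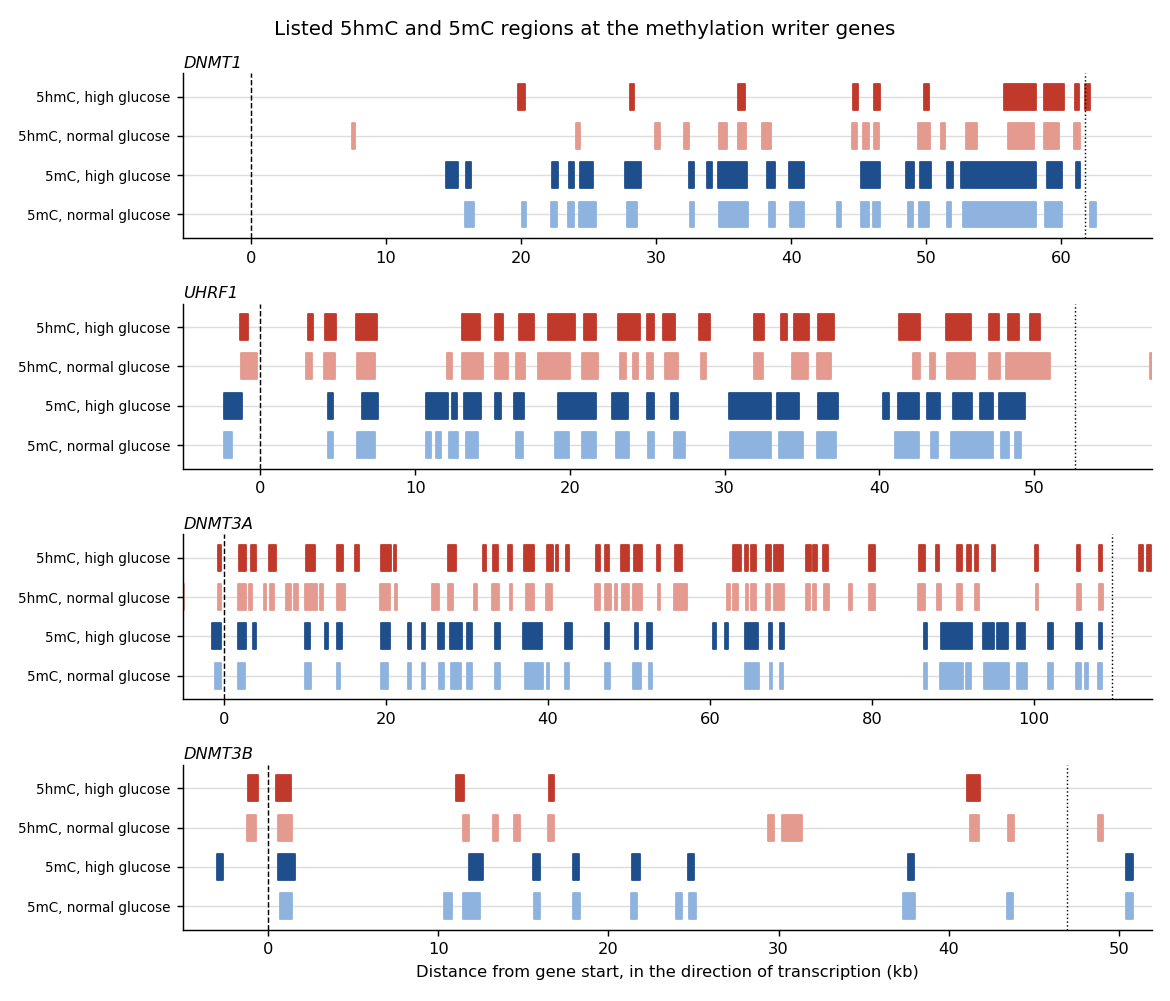
Listed regions at DNMT1, UHRF1, DNMT3A and DNMT3B, drawn to scale against the distance from the gene start in the direction of transcription (kb, dashed line at the start, dotted line at the gene end), with 1 row per list. DNMT1 carries regions toward its end and none around its start, while those of UHRF1 run along the gene.

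The maintenance genes DNMT1 and UHRF1 were rich in 5mC, and so was DNMT3A. DNMT1, on the minus strand of chromosome 19 from 10244022 to 10305755, had 18 5mC regions in high and 19 in normal glucose, covering 26.6% and 24.7% of the locus. Windows of the same length laid end to end along chromosomes 1 to 22 and X, counted where any list had a region, had a median 5mC cover of 0.640% in high and 0.563% in normal glucose. The DNMT1 locus lay at or above 98.6% of these 37109 windows in high and 98.5% in normal glucose. Its strongest 5mC region lay close to the end of the gene, from 10245692 to 10246832 in high glucose (fold enrichment 26.3, -log10 p 76.1) and from 10245699 to 10246974 in normal glucose (fold 37.3, -log10 p 98.7). Only 4.46% of the high-glucose and 1.95% of the normal-glucose 5mC list had a higher -log10 p. Fold and p per region were the authors' own and serve to place a region within its list only.

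5hmC at DNMT1 was listed in 10 regions in high and 16 in normal glucose. They covered 10.03% of the locus in high and 13.8% in normal glucose, which gave a ratio of covered length of 0.729. The strongest high-glucose one ran from 10245547 to 10247066 (fold 6.004, -log10 p 18.5), over the strongest 5mC region, and the strongest normal-glucose one from 10247751 to 10249691 (fold 6.52, -log10 p 17.7). In the windows of this length with 5hmC at both glucose levels the median ratio was 1.001, and 19.9% of them had a ratio as low or lower. Of the DNMT1 regions, 3 of 10 had no overlapping 5hmC region in normal glucose and 9 of 16 had none in high glucose, where 24.1% of all high-glucose and 31.2% of all normal-glucose 5hmC regions lacked such a partner. The 9 had a median -log10 p of 5.63, and 2 of them reached 10, both at 10.2, from 10254371 to 10254680 and from 10259990 to 10260430. Of all normal-glucose 5hmC regions that strong, 8.90% lacked a partner, and of the high-glucose ones 9.88%. The nearest high-glucose 5hmC regions were 912 and 364 bp away. At that strength, with or without a partner, DNMT1 held 3 5hmC regions in high and 7 in normal glucose.

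Of the 5mC regions at DNMT1, 3 of 18 high-glucose and 3 of 19 normal-glucose regions lacked a partner, against 28.3% and 21.5% of all 5mC regions. A single one of them reached a -log10 p of 10, in high glucose, from 10290404 to 10291294 (fold 6.78, -log10 p 10.4). It was the 5mC region nearest the start in that list and rested on 11 fragments at its summit, and the nearest normal-glucose 5mC region lay 541 bp away. Of all 5mC regions that strong, 6.97% in high and 4.21% in normal glucose lacked a partner. At chromosome 19 from 10285387 to 10286004, in the same gene, 5hmC was listed in high glucose alone and 5mC in normal glucose alone. Both regions were weak: the 5hmC one had a -log10 p of 4.96 and 13 fragments at its summit. The 5mC one had a -log10 p of 6.53 and 7 fragments. Of the 26 segments formed at DNMT1 when overlapping regions of all lists were joined, 5 were in all 4 lists, against 7.41% of the segments of the full lists, and 10 carried 5mC only. At 3 segments with 5mC at both glucose levels, 5hmC was listed in normal glucose alone, and at 1 such segment in high glucose alone. The segment from 10285387 to 10286004 was 1 of the 142 segments of the 7 loci in its state (0.704%), against 0.142% of all segments.

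UHRF1, on the plus strand of chromosome 19 from 4909510 to 4962165, was the locus most covered by both marks. 5hmC covered 30.9% in high and 32.8% in normal glucose, at or above 99.5% and 99.1% of windows of its length. The 5mC cover was 36.4% in high and 30.8% in normal glucose, with a ratio of 1.18. The median ratio of windows was 1.065, and 63.8% of windows had a ratio as low or lower, so the 5mC difference at UHRF1 lay within the common range. Both lists held 21 5mC regions. The strongest lay from 4932204 to 4933297 in high glucose (fold 43.5, -log10 p 146, 98 fragments) and from 4932499 to 4933326 in normal glucose (fold 46.3, -log10 p 138, 86 fragments). It was the strongest member of each 5mC list, and 0.835% of the high-glucose and 0.644% of the normal-glucose list had a higher -log10 p.

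At UHRF1 most 5hmC regions shared at least 1 bp with 5mC of the same glucose level. Of its 22 high-glucose 5hmC regions, 19 overlapped a high-glucose 5mC region, and of its 24 normal-glucose 5hmC regions, 18 overlapped normal-glucose 5mC, where 17.6% of all high-glucose and 18.0% of all normal-glucose 5hmC regions overlapped 5mC. 5mC covered 36.4% of this locus in high and 30.8% in normal glucose, and the part of that density in the overlap was not tested. Of 21 joined segments, 14 were in all 4 lists, 3 carried 5hmC only and 1 carried 5mC only. At 1 glucose level were found 1 of 22 high-glucose and 3 of 24 normal-glucose 5hmC regions, against 24.1% and 31.2% of the full lists, and 2 of 21 high-glucose and 0 of 21 normal-glucose 5mC regions, against 28.3% and 21.5%. None of these 6 reached a -log10 p of 10, the highest being 8.42. The strongest 5hmC region, 4930436 to 4931217 in high (fold 9.67, -log10 p 28.8) and 4930284 to 4931341 in normal glucose (fold 8.67, -log10 p 26.04), also overlapped 5mC in both.

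DNMT3A, the longest of the genes, on the minus strand of chromosome 2 from 25455830 to 25565459, held the most regions. 5hmC was listed in 43 regions in high and 45 in normal glucose, covering 23.1% and 23.6% of the locus (ratio 0.980). 5mC was listed in 31 regions in high and 29 in normal glucose, covering 22.4% and 21.0% (ratio 1.07). That 5mC cover lay at or above 98.3% of windows of this length in high and 98.2% in normal glucose, close to the shares at DNMT1. Both ratios sat near the middle of the windows, of which 47.4% had a 5hmC ratio and 48.4% a 5mC ratio as low or lower. The strongest high-glucose 5hmC region of the 7 loci ran from 25544802 to 25545992 (fold 12.3, -log10 p 52.3, 65 fragments). A normal-glucose region from 25544957 to 25546136 (fold 8.55, -log10 p 30.1, 45 fragments) lay on the same place. The strongest normal-glucose 5hmC region of the 7 loci ran from 25553953 to 25555420 (fold 8.43, -log10 p 30.8), where high glucose had a region from 25554152 to 25555349 (fold 10.7, -log10 p 46.5). The strongest 5mC region of DNMT3A ran from 25536074 to 25537548 in high glucose (fold 28.4, -log10 p 76.9). In normal glucose it was another, from 25554684 to 25555422 (fold 30.6, -log10 p 91.0).

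A stretch of DNMT3A carried 5hmC without 5mC. From 25479083 to 25496333, between 69126 and 86376 bp from the start, no 5mC region was listed at either glucose level, while 4 high-glucose and 5 normal-glucose 5hmC regions lay wholly inside. It was picked as the longest stretch of the locus without 5mC regions, and how often such stretches occur elsewhere was not tested. The strongest of these 5hmC regions, each within its own list, had a -log10 p of 29.5 in high glucose (25492170 to 25492676) and 15.3 in normal glucose. Over the whole locus, 27 of 59 joined segments (45.8%) carried 5hmC only, against 63.8% of all segments, 9 (15.3%) carried 5mC only, against 22.3%, and 17 (28.8%) were in all 4 lists, against 7.41%. Without a normal-glucose partner and past 10 in -log10 p were the high-glucose 5hmC regions from 25470306 to 25470624 (fold 5.00, -log10 p 10.8), which overlapped 5mC, and from 25548774 to 25549221 (fold 5.44, -log10 p 13.5), which did not. DNMT3A held 20 high-glucose 5hmC regions that strong, and 9.88% of all such high-glucose regions lacked a partner. At any strength, 8 of 43 high-glucose and 9 of 45 normal-glucose 5hmC regions lacked one, against 24.1% and 31.2% of the full lists. The 9 5hmC regions of normal glucose alone had a highest -log10 p of 7.90. The segment from 25502994 to 25503583 paired 5hmC in normal glucose alone with 5mC in high glucose alone. It was 1 of the 142 segments of the 7 loci in this state (0.704%), against 0.443% of all segments. Its 5hmC region had a -log10 p of 2.93 and lay 379 bp from the nearest high-glucose 5hmC region. Its 5mC region had a -log10 p of 7.70 and 9 fragments at its summit.

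DNMT3B, on the plus strand of chromosome 20 from 31350191 to 31397162, was the locus where 5hmC differed most between the glucose levels. It had 5 5hmC regions in high and 11 in normal glucose, covering 5.27% and 9.64% of the locus. The ratio of covered length was 0.547, a difference past 1.5-fold, which 15.7% of 40231 windows of this length also showed in this direction. All 5 high-glucose regions had a normal-glucose partner, and 6 of the 11 normal-glucose regions had none in high glucose, where 24.1% of all high-glucose and 31.2% of all normal-glucose 5hmC regions lacked one. The 6 had a median -log10 p of 5.72, and 2 of the 4 DNMT3B regions past 10 in normal glucose were among them, where 8.90% of all regions that strong lacked a partner. They ran from 31380416 to 31381548 (fold 5.23, -log10 p 10.9, 20 fragments), 9725 bp from the nearest high-glucose region, and from 31393680 to 31394048 (fold 5.67, -log10 p 14.5, 27 fragments), 1624 bp from it. The second place also had 5mC in normal glucose alone.

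5mC at DNMT3B was listed in 9 regions in high and 11 in normal glucose, with a cover of 7.94% and 9.78% and a ratio of 0.812. That cover lay at or above 91.05% of windows of this length in high and 93.63% in normal glucose. Of windows, 17.9% had a 5mC ratio as low or lower. At DNMT3B, 1 of 5 high-glucose and 3 of 11 normal-glucose 5hmC regions overlapped 5mC, against 17.6% and 18.0% of all 5hmC regions, and 2 of 20 joined segments were in all 4 lists, against 7.41% of all segments. The first of them along the gene was the pair just inside the gene start. Its 5hmC region ran from 31350676 to 31351518 in high glucose (fold 5.52, -log10 p 13.7) and from 31350749 to 31351577 in normal glucose (fold 7.15, -log10 p 20.5). Its 5mC region ran from 31350797 to 31351740 in high glucose (fold 8.13, -log10 p 15.7) and from 31350873 to 31351594 in normal glucose (fold 8.63, -log10 p 14.4). The 5hmC regions were the strongest 5hmC regions of the locus in both lists. The 5mC region of this pair was the strongest of the locus in high glucose only. In normal glucose the strongest 5mC region ran from 31387488 to 31388190 (fold 11.6, -log10 p 22.5).

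**Figure D2:**
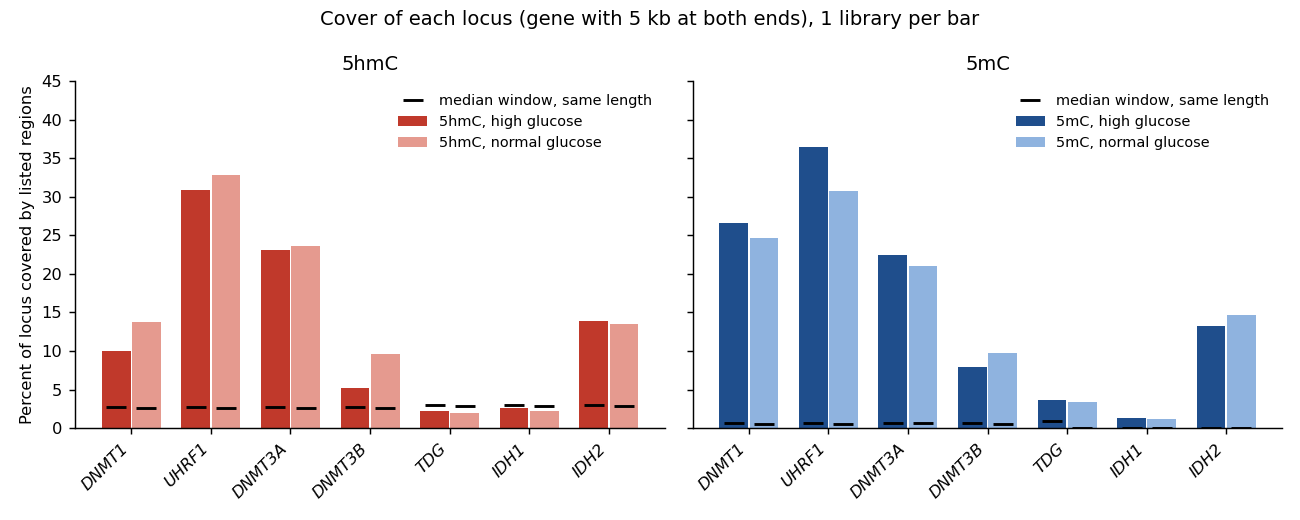
Percent of each locus, the gene with 5 kb at both ends, covered by listed 5hmC (left) and 5mC (right) regions in high and normal glucose, 1 library per bar, with black marks at the median of windows of the same length. Cover is highest at UHRF1, and TDG and IDH1 lie below the median window for 5hmC.

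TDG, on the plus strand of chromosome 12 from 104359593 to 104382656, held few regions. A single 5hmC region was listed, from 104371783 to 104372530 in high glucose (fold 9.92, -log10 p 29.9, 39 fragments) and from 104371805 to 104372437 in normal glucose (fold 6.67, -log10 p 21.2, 37 fragments). It was strong for its lists, where 6.45% of high-glucose and 9.06% of normal-glucose regions had a higher -log10 p. It did not overlap 5mC, which was listed in 2 regions in high and 3 in normal glucose, all farther along the gene or past its end. The strongest 5mC region ran from 104379569 to 104380006 in high glucose (fold 10.9, -log10 p 19.9). In normal glucose it ran from 104379569 to 104380027 (fold 9.29, -log10 p 15.5). The additional normal-glucose 5mC region, from 104378057 to 104378417 (fold 7.43, -log10 p 11.5), had 11 fragments at its summit and lay 1151 bp from the nearest high-glucose 5mC region. Of all normal-glucose 5mC regions past 10 in -log10 p, 4.21% lacked a partner. 5hmC covered 2.26% of the locus in high and 1.91% in normal glucose, below the window medians of 2.95% and 2.86%. 5mC covered 3.71% in high and 3.46% in normal glucose, above the window medians of 0.980% and 0, and at or above 79.1% and 79.5% of windows. The 5mC ratio of covered length was 1.07 and turned to 0.534 without the flank or with regions past 10 in -log10 p, and to 0.777 with 10 kb added.

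The isocitrate dehydrogenase genes differed from each other. IDH1, on the minus strand of chromosome 2 from 209100953 to 209119806, had 2 5hmC regions and 1 5mC region at each glucose level and none found at 1 level alone. Between the 5hmC region at the start and the regions past the gene end, 18701 bp held no region of any list. Its cover was common for windows of this length. 5hmC covered 2.62% in high and 2.18% in normal glucose, at or above 45.4% and 40.7% of windows (medians 3.02% and 2.94%). 5mC covered 1.28% and 1.14%, at or above 58.55% and 58.02% of windows (medians 0). The region at the start lay below the median of its lists in -log10 p, from 209119311 to 209119617 in high glucose (fold 3.50, -log10 p 7.10) and from 209119331 to 209119609 in normal glucose (fold 3.67, -log10 p 5.78). Past the other end, 5hmC and 5mC overlapped at both glucose levels, from 209100055 to 209100609. The 5hmC regions there were the strongest of the locus, with a -log10 p of 13.5 in high and 13.8 in normal glucose. The 5mC regions there had a -log10 p of 7.04 in high and 7.70 in normal glucose.

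IDH2, on the minus strand of chromosome 15 from 90627212 to 90645708, was densely marked for its length. 5hmC was listed in 8 regions in high and 7 in normal glucose, with a cover of 13.9% and 13.5%, and 5mC in 6 regions at each level, with a cover of 13.3% and 14.6%. These values lay at or above 92.8% and 90.5% of windows for 5hmC and 94.5% and 95.5% for 5mC. The strongest 5mC region lay 659 bp inside the start, from 90644462 to 90645049 in high glucose (fold 10.5, -log10 p 21.8) and from 90644514 to 90645049 in normal glucose (fold 8.92, -log10 p 15.2). The strongest 5hmC region lay deeper in the gene, from 90642189 to 90642697 in high (fold 4.50, -log10 p 16.0) and from 90642159 to 90642669 in normal glucose (fold 6.50, -log10 p 20.3), and overlapped 5mC in both. A 5hmC region from 90635433 to 90635785 (fold 4.89, -log10 p 10.5) was found in high glucose alone, 1956 bp from the nearest normal-glucose region. Of all high-glucose 5hmC regions past 10 in -log10 p, 9.88% lacked a partner. At any strength, 1 of 8 high-glucose and 0 of 7 normal-glucose 5hmC regions lacked one, against 24.1% and 31.2% of the full lists. For 5mC, 1 of 6 regions in each list lacked one, against 28.3% in high and 21.5% in normal glucose.

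**Figure D3:**
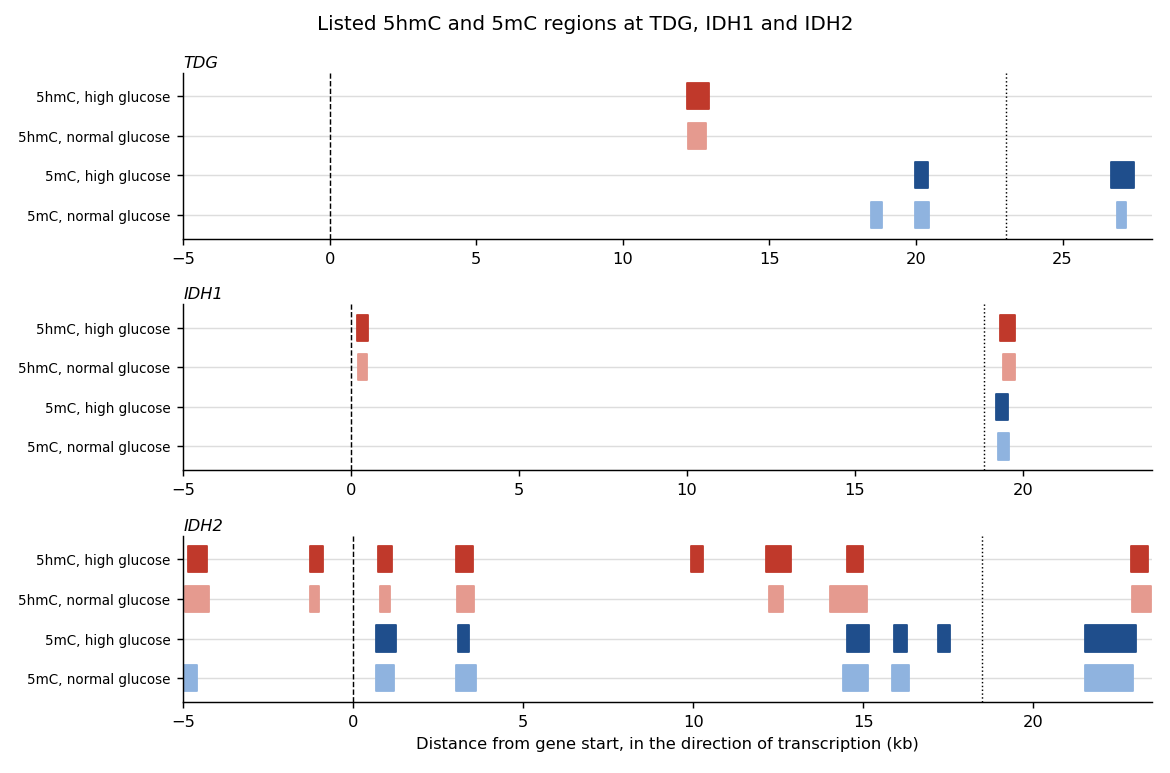
Listed regions at TDG, IDH1 and IDH2 against the distance from the gene start in the direction of transcription (kb, dashed line at the start, dotted line at the gene end), with 1 row per list. TDG holds a single 5hmC region per list, IDH1 holds none between the region at its start and its end, and IDH2 carries both marks.

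Over the 7 loci together, there were 91 high-glucose against 106 normal-glucose 5hmC regions, which gave a number ratio of 0.858 with a counting interval of 0.649 to 1.135, against 0.911 over all regions of the lists. They covered 62.7 kb in high and 69.2 kb in normal glucose (ratio 0.905, and 0.922 over the full lists). DNMT1 and DNMT3B together held 15 of the high-glucose and 27 of the normal-glucose regions. Past 10 in -log10 p, the loci held 42 5hmC regions in high and 46 in normal glucose, while the full lists held 95542 and 85278, a ratio of 1.12. The 5mC lists held 88 high-glucose and 90 normal-glucose members, at a ratio of 0.978 against 1.09 over the full lists (interval 0.730 to 1.31), which covered 78.6 kb and 73.4 kb, at a ratio of 1.07 against 1.08. Both number intervals include 1 and the ratio of the full lists. By the inferred read numbers, the high-glucose 5mC library is also the deeper of its pair, and the part of depth in the 5mC ratios was not tested.

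The share of members found at 1 glucose level lay below that of the full list for both 5mC lists and for high-glucose 5hmC, and the interval of normal-glucose 5hmC includes the full list's share. In the high-glucose 5hmC list 13 of 91 members had no normal-glucose partner, 14.3% (Wilson 95% interval 8.54 to 22.9), against 24.1% of all regions. In the normal-glucose 5hmC list it was 27 of 106, 25.5% (18.1 to 34.5), against 31.2%. For 5mC it was 11 of 88 in high glucose, 12.5% (7.13 to 21.0), against 28.3%, and 10 of 90 in normal glucose, 11.1% (6.15 to 19.3), against 21.5%. Regions of 1 locus are neighbours and not independent, so these intervals cover counting error only. Among the stronger members, past 10 in -log10 p, those without a partner were 3 of 42 (7.14%) for high-glucose and 4 of 46 (8.70%) for normal-glucose 5hmC, near the 9.88% and 8.90% of all such regions. For 5mC it was 1 of 55 high-glucose and 1 of 50 normal-glucose members, against 6.97% and 4.21%.

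Members found at 1 glucose level had lower medians of -log10 p than those found at both. For 5hmC the medians were 6.47 and 10.2 among high-glucose members and 5.63 and 11.2 among normal-glucose members. For 5mC they were 7.32 and 15.7 among high-glucose members and 6.30 and 12.5 among normal-glucose members. Summits of the members found at 1 level held 12 to 26 fragments in the high-glucose and 10 to 27 in the normal-glucose 5hmC list, and 7 to 12 and 4 to 11 in the 5mC lists. A region listed at 1 level is therefore not shown to differ from the other level.

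**Figure D4:**
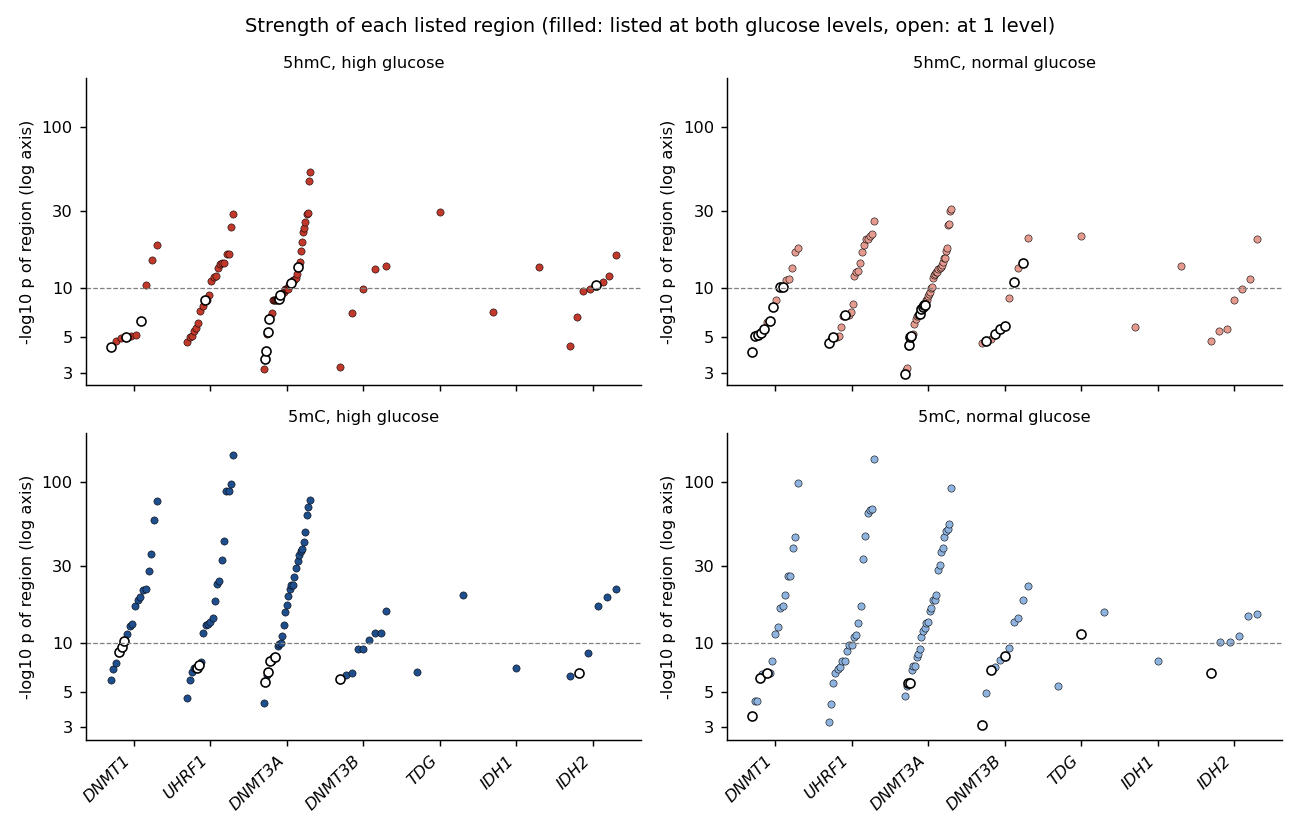
The -log10 p of every member region (log axis) by gene in each of the 4 lists, sorted within a gene, filled where the region has a partner at the other glucose level and open where it has none. The dashed line marks 10, which 3 open points pass in the high-glucose 5hmC list, 4 in the normal-glucose 5hmC list and 1 in each 5mC list.

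A larger share of the member regions than of the full lists overlapped the other mark. For 5hmC the count was 54 of 91 in high glucose, 59.3% (Wilson interval 49.1 to 68.9), against 17.6% of all high-glucose 5hmC regions, and 57 of 106 in normal glucose, 53.8% (44.3 to 63.0), against 18.0%. UHRF1 and DNMT3A gave 41 of the 54 and 38 of the 57. 5mC regions overlapped 5hmC at 50 of 88 in high glucose, 56.8% (46.4 to 66.7), against 32.2%, and at 53 of 90 in normal glucose, 58.9% (48.6 to 68.5), against 39.7%. The loci were covered by 5mC at 19.6% in high and 18.3% in normal glucose, and by 5hmC at 15.6% and 17.2%, and member regions were wider than the full lists, with medians of 572 and 558 bp for high- and normal-glucose 5hmC against 464 and 443 bp. The part of this density and width in the overlap was not tested.

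Joined across lists, the members formed 142 segments, of which 43, or 30.3%, were in all 4 lists, against 7.41% of 319166 segments of the full lists. By locus this share was highest at UHRF1, 14 of 21, and lowest at TDG, 0 of 4. A segment counts for a list when any region of that list lies in it, so the 4 lists need not share a base. Dense and wide regions join into long segments, such as 1 of 6716 bp at UHRF1. The part of density and width in the share in all 4 lists was not tested. A further 34 segments (23.9%) carried 5mC only, against 22.3% of all segments, and 48 (33.8%) carried 5hmC only, against 63.8%. With 5mC listed at both glucose levels, 3 segments (2.11%) had 5hmC in high glucose alone, against 0.805% of all segments, and 6 (4.23%) had it in normal glucose alone, against 2.05%. The 3 lay at DNMT3A (2) and DNMT1 (1), and the 6 at DNMT1 (3), UHRF1 (2) and DNMT3A (1).

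**Figure D5:**
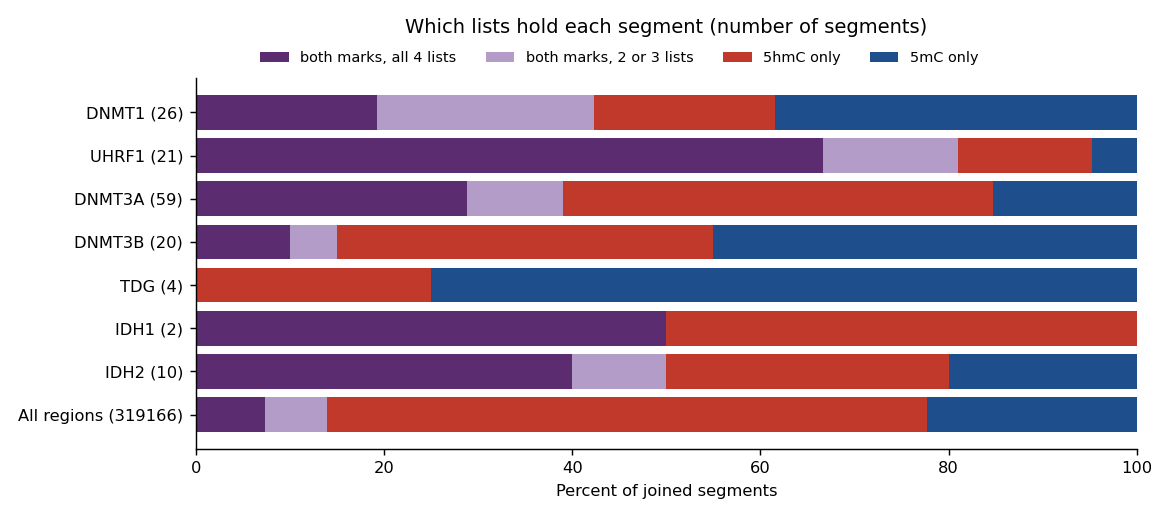
Percent of joined segments at each locus, and over all regions, that carried both marks in all 4 lists, both marks in 2 or 3 lists, 5hmC only or 5mC only, with the number of segments in parentheses. UHRF1 has the widest share in all 4 lists, at 66.7%, against 7.41% over all regions. The lists need not share a base within a segment, and dense regions join into longer segments.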

How the data were processed

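The authors deposited 1 narrow peak list per immunoprecipitated library, with a fold enrichment (a ratio over background), a -log10 p-value and a -log10 q-value for each region. The display score deposited by the authors was not used. The highest q-value of any region was 0.0498. Per the submitters' processing notes, the tools were bedtools 2.17.0, SAMtools 0.1.18, Bowtie 1.0.0 and CASAVA 1.8.2, with no roles named, and the build was hg19. Neither the peak caller nor its control is given in the sources used here. Samples were grouped by title. The region names inside the lists call the high-glucose libraries Ctrl and the normal-glucose ones Low, and every high-over-normal ratio rests on the titles. The 2 input libraries were not analysed here.

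The 7 spans and the lists were chosen with earlier results of these data known. Every locus is described, and for each the strongest region and the region nearest the gene start in each list were taken, with regions of 1 glucose level at a -log10 p of at least 10. Regions shared at least 1 bp to count as overlapping. Counts over the full lists leave out 191 rows on chromosome Y or mitochondrial DNA. Cover is the percent of a locus inside listed regions. Summit fragments and background were solved from fold and p with a Poisson formula, to within 1% of the step between whole counts, which succeeded for all regions. The calculation was also run on simulated data made with the same formula. That run checks the calculation and not how the deposited columns were made. Intervals are Wilson intervals at 95%, for number ratios taken through the high-glucose share of the counts. For the recomputed covered lengths the interval of the number ratio was scaled to the length ratio, so it measures no error of length. Python 3.11.15, NumPy 2.4.6, pandas 2.3.3 and SciPy 1.17.1 were used. Alternatives were the flank, stricter thresholds, equal list lengths, merging and a 50% overlap. An hg19 gene annotation was not used here, so exons, introns and further genes of the pathway are not reported.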

Additional observations from a re-analysis of the deposited data

How the results depend on the processing

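Each total over the 7 loci was recomputed with no flank, with 10 kb, at a -log10 p of at least 5 or 10, at a -log10 q of at least 2, with equal numbers of top peaks and with regions within 500 bp merged. The 5hmC ratio stayed between 0.836 and 0.913 for number and between 0.845 and 0.930 for covered length. The 5mC ratio of number lay between 0.949 and 1.10, on both sides of 1, and that of covered length between 1.05 and 1.15. At single loci, the 5hmC ratio of covered length lay between 0.476 and 0.759 at DNMT1 and between 0.459 and 0.599 at DNMT3B, while the one at DNMT3A (0.899 to 1.034) and the 5mC one at TDG (0.534 to 1.07) crossed 1.

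Shares moved beyond their counting interval under the strictest threshold and the stricter overlap. At a -log10 p of at least 10 in every list, members without a partner were 38.1% and 43.5% of high- and normal-glucose 5hmC and 21.8% of high-glucose 5mC regions, and 5mC regions with 5hmC were 40.0% in high and 42.0% in normal glucose. A partner below the threshold counts as missing there. When 50% of both regions had to overlap, members without a partner were 26.4%, 36.8%, 26.1% and 27.8% of the high- and normal-glucose 5hmC and high- and normal-glucose 5mC regions, and 5mC regions with 5hmC were 26.1% in high and 32.2% in normal glucose. Shares of the full lists were not recomputed under either setting. Whether members still differ from the full lists there was therefore not tested. Of 76 such recomputed totals and shares, 65 stayed within the interval, as did 192 of 192 for single loci, where intervals are wide. At loci with few regions hardly any value could leave the interval: the 5mC length ratio of TDG stayed inside it while moving from 1.07 to 0.534. The 192 of 192 therefore does not show that single-locus ratios are stable. No paired analysis was possible because each group has 1 library. The 5mC lists rest on 6.14 M and 5.11 M inferred reads, which limits what they can show at weak regions.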

Other observations

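The widest member regions were 5mC regions in the part of DNMT1 toward the end of the gene. In high glucose 1 region ran for 5564 bp from 10247629 to 10253192 (fold 21.99, -log10 p 58.1), and in normal glucose for 5388 bp from 10247669 to 10253056 (fold 18.3, -log10 p 45.4). The 5hmC regions on it were narrower, the widest of DNMT1 being 2323 bp in high and 1941 bp in normal glucose. DNMT3A had a 5mC region of 3833 bp in high glucose, from 25473123 to 25476955. In normal glucose this place held separate 5mC regions, from 25473208 to 25473810 and from 25474171 to 25477054. The reverse was seen nearby, where normal glucose had a 5mC region of 3102 bp from 25468487 to 25471588. There high glucose had separate regions, from 25468597 to 25470018 and from 25470379 to 25471689. The widest 5hmC member was a normal-glucose region of UHRF1, 2871 bp from 4957696 to 4960566, where the 5hmC list of high glucose held 2 separate regions, from 4957802 to 4958568 and from 4959229 to 4959919.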
